A study of Mus musculus with 6 samples.

Results

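Tetraspanins are small membrane proteins that cross the membrane repeatedly and gather integrins, immunoglobulin-like proteins and proteases into patches of the cell surface. Tspan2 marks oligodendrocytes, Cd9 and Cd81 lie on both myelinating cells and microglia, and Cd63 cycles through late endosomes and lysosomes. The genes described here are 9 members of this family, namely Tspan2, Cd9, Cd81, Cd82, Cd63, Cd151, Tspan3, Tspan7 and Tspan15. A probe set with exactly 1 gene symbol was found for 8 of the 9, out of 22180 genes with such a probe set, and Tspan7, an X-linked gene, is not analysed here. Where a gene had several probe sets, the one described was chosen by its highest mean over the 6 arrays. The family was taken up because Tspan2 had already stood out between these same groups, so the difference of Tspan2 is a description and was not read as a test.

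The study asked how astrocytes bear on early myelin repair. All mice were 5 to 6 weeks old and received LPC, a lipid that strips myelin where it is injected, and then CID, the compound that triggers astrocyte ablation, 48 hours later. Lesions were cut out 7 days after LPC, and total RNA of each lesion went onto 1 Affymetrix array. The wild type group (3 arrays) and the transgenic group (3 arrays) thus had the same lesion and the same compound. They differed by a transgene that lets non-proliferating GFAP-positive astrocytes be eliminated. Neither the promoter driving it nor the mouse strain is given in the sources used here. Whether each lesion of a group had its own animal is not stated, and the spread behind every p-value is that between these samples, which may be technical. A lesion is mixed tissue, in which fewer cells of a type and less RNA per cell cannot be told apart.

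Levels are log2 RMA intensities and differences are transgenic minus wild type on that scale, so -1 is a halving. The array medians lay between 5.34 and 5.59. Xist and Eif2s3y showed 4 female and 2 male lesions: all wild type lesions and transgenic lesion 2 were female, and transgenic lesions 1 and 3 were male. The mean of 5 striatal neuron genes was 8.16 and 8.79 in wild type lesions 2 and 3 but 5.99 in wild type lesion 1 and 6.11 to 6.53 in the transgenic lesions. Of the other marker lists, 9 neuron genes had a median difference of 0.36, 8 endothelial genes 0.05 and 6 lymphocyte genes 0.03. The median was -0.05 for 7 monocyte and border macrophage genes, -0.61 for 6 neuroblast genes and -0.35 for 5 ependymal genes. The 9 pericyte and fibroblast genes had a median of 0.13 and a mean of 0.42, with 6 higher and 3 lower in mean. The extracellular matrix genes Dcn (1.41), Mgp (1.30) and Lum (0.73) were higher without overlap of the groups. For the collagen genes Col1a1 (-0.20) and Col1a2 (0.56) of the same list the groups overlapped. Values for sex and region are set beside Tspan2, and values for sex beside Cd151 and Tspan3. The remaining members are covered for sex only by the processing alternatives at the end. The part of sex and region in any of the results was not tested.

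Most of these tetraspanins stood lower in the transgenic lesions. The mean was lower for 7 of the 8 genes, Tspan3 being the exception, where 51.3% of all genes had a lower mean. Centring each array on its median turned that background to 41.0%. The median difference of the 8 genes was -0.53, beside -0.01 over all genes, and -0.33 without wild type lesion 1. The groups were apart, with all transgenic arrays lower, for 4 of the 8 (Tspan2, Cd82, Cd81 and Tspan15) and for 7.00% of all genes. They were apart with all transgenic arrays higher for 0 of the 8 and for 8.38% of all genes. None of the 8 passed the threshold of 0.05 in limma adjusted over all 41345 probe sets, and neither did any other probe set (0.00%). At an unadjusted p under 0.05 there were 4 of the 8, and 3668 probe sets (8.87%). Tspan2, taken up for its difference between these same groups, is included in all these tallies of the 8 genes. They are therefore descriptions and not tests.

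**Figure D1:**
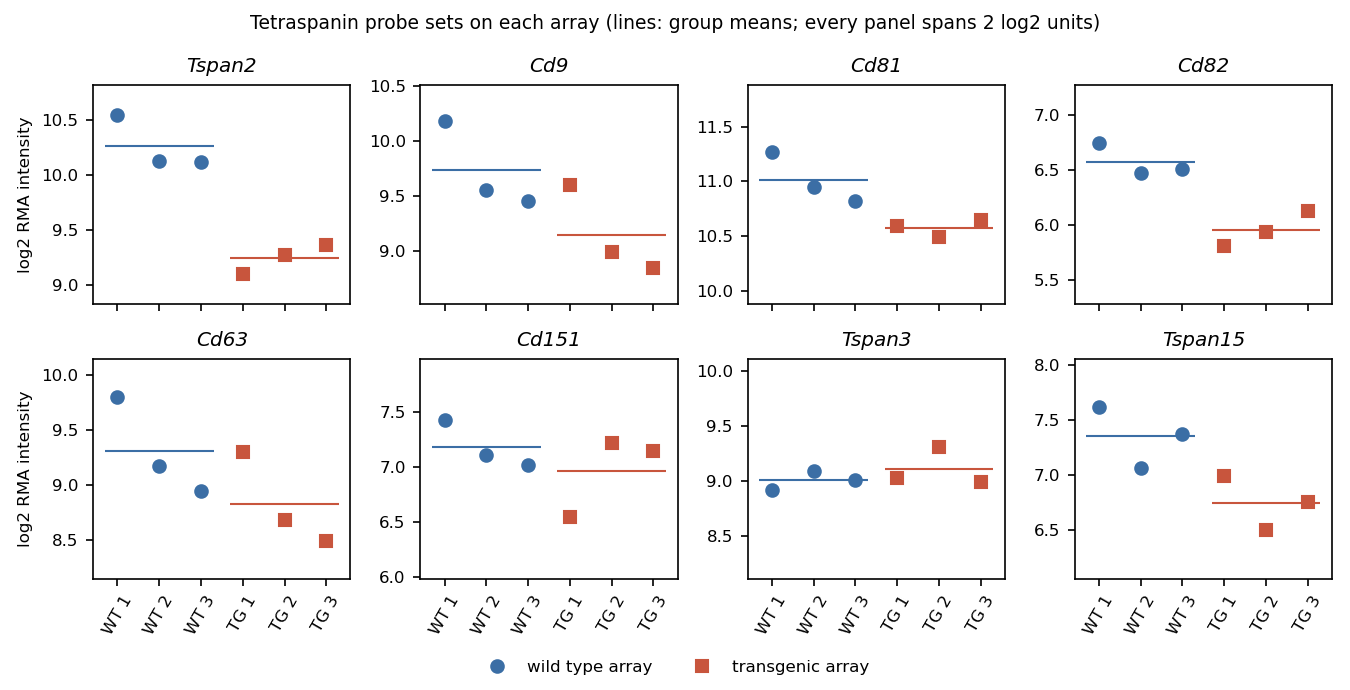
Log2 RMA intensity (vertical axis, a window of the same height in every panel) of 8 tetraspanin genes on each array, with circles for the 3 wild type lesions, squares for the 3 transgenic lesions and lines for the group means. The groups are apart for Tspan2, Cd81, Cd82 and Tspan15 and overlap for Cd9, Cd63, Cd151 and Tspan3; wild type lesion 1 is the highest array for 7 of the 8.

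Tspan2, the tetraspanin of oligodendrocytes, stood at 10.55, 10.13 and 10.11 in wild type lesions 1, 2 and 3. In transgenic lesions 1, 2 and 3 it stood at 9.10, 9.27 and 9.36. The groups were 0.75 apart at their nearest arrays, the widest gap of the 8 genes. The difference was -1.02 (SE 0.17, 95% confidence interval -1.42 to -0.61, n = 3 against 3), and 59 of the 22180 genes (0.266%) had a difference at least as low. Since Tspan2 was chosen for this difference, that share describes its size and is not a test. Wild type lesion 1, whose striatal genes were as low as those of the transgenic lesions, was the highest array for Tspan2. Set against the transgenic lesions without the remaining wild type lesions, it gave a difference of -1.30. In the female lesions alone the difference was -0.99 (SE 0.23), resting on a single transgenic lesion.

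Markers of myelin stood lower beside Tspan2. Of 15 genes on the myelin and mature oligodendrocyte list 13 were measured, and the transgenic mean was lower for all 13 (median difference -0.87). Their summed intensity ranged from 11420 to 15070 in the wild type group and from 5525 to 8483 in the transgenic one, and none was at 0. The groups were apart, with all transgenic arrays lower, for 12 of the 13 and for 7.00% of all genes. Among the 12 were Mbp, which compacts the layers of the sheath, and Mag, which faces the axon. Only 2 of the 13 had a difference below that of Tspan2. Relative to the mean of the 13 genes on the same array, Tspan2 lay 0.79 ± 0.08 (SD, n = 3) higher in wild type and 0.67 ± 0.17 higher in transgenic lesions. That difference of -0.13 was smaller than the spread between the transgenic lesions.

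Among the transgenic lesions, Tspan2 was steadier than most myelin genes. Its range over these 3 arrays was 0.27, and 11 of the 13 myelin genes had a wider one, with a median of 0.61 and a largest of 1.28. Mbp, the myelin gene with the widest range, stood at 8.43 in transgenic lesion 1 and at 9.70 in transgenic lesion 2, where Tspan2 moved from 9.10 to 9.27. In the wild type lesions Mbp was the steadier, from 9.84 to 10.05, where Tspan2 ran from 10.11 to 10.55.

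Genes of oligodendrocytes were among those most like Tspan2 across the 6 arrays. Likeness was Pearson r over the 6 arrays among 2845 genes that ranged over at least 1 on the log2 scale. It is a description, since all these genes share the arrays and the group difference. Myrf, the transcription factor that switches on myelin genes, came first (r = 0.996) and followed Tspan2 also in deviations from the group means (r = 0.990). Gpr37, a receptor of myelinating cells, was next (r = 0.985), then Clic4, an intracellular chloride channel protein (0.982), and Ddr1, a collagen receptor (0.981). The nuclear RNA Neat1 (0.979), the scaffold protein Erbin (0.977), the myelin enzyme Cnp (0.976) and Ugt8a, which makes galactolipids of myelin (0.975), completed the nearest 8. Of the nearest 50 genes, 7 were on the myelin list, 3 (Sox10, Bcas1 and Tns3) on the list of precursors and new oligodendrocytes, and none on the microglia or phagocyte lists. The filter on range left 13 of the myelin genes, 6 of the precursor genes, 7 of the homeostatic microglia genes and 8 of the phagocyte genes among the candidates. Cd82 ranged over less than 1, so it was not ranked here, though its r with Tspan2 (0.989) was above that of Gpr37.

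Cd82, known as a suppressor of metastasis and also made by oligodendrocytes as they mature, had much the same profile. Its levels were 6.74, 6.47 and 6.51 in wild type lesions 1 to 3 and 5.81, 5.94 and 6.12 in transgenic lesions 1 to 3. Both genes were highest in wild type lesion 1 and lowest in transgenic lesion 1, with no overlap of the groups. The difference of Cd82 was -0.62 (SE 0.16, limma adjusted p 0.414), a 1.54-fold lower level, and r with Tspan2 was 0.989. Relative to the mean of the myelin genes on the same array, Cd82 differed by 0.27 (SD 0.09 in wild type, 0.22 in transgenic lesions). Its nearest genes were Erbin (0.989), Tspan2 itself and Bcas1 (0.986), a gene of oligodendrocytes that begin to myelinate. On the list of precursors and new oligodendrocytes 10 of 10 genes were lower in mean (median difference -0.53), with sums of 1408 to 1806 in the wild type group and 912 to 1253 in the transgenic one, and no marker at 0.

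Cd9 and Cd63 followed another pattern. Cd9, a partner of integrins on myelin and on lipid-laden microglia, had levels of 10.19, 9.56 and 9.46 in wild type lesions 1 to 3. Its levels in transgenic lesions 1 to 3 were 9.61, 8.99 and 8.84. Cd63, the tetraspanin of lysosomes and exosomes, gave 9.80, 9.18 and 8.94 in the wild type group and 9.30, 8.68 and 8.50 in the transgenic one. In both genes lesion 1 was the highest of each group, and transgenic lesion 1 reached into the wild type range. The difference was -0.59 (SE 0.27, limma adjusted p 0.593) for Cd9 and -0.48 (SE 0.29, adjusted p 0.687) for Cd63. Neither passed the threshold in this fit. Without wild type lesion 1 they were -0.36 and -0.23, and without transgenic lesion 1 they were -0.82 and -0.72, with limma adjusted p-values of 0.369 and 0.394 in the latter fit.

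Each of the pair was the other's nearest gene (r = 0.987, and 0.994 for deviations from the group means). Next to Cd9 came Skap2, an adaptor of myeloid cells (0.982), and the intermediate filament Vim (0.977). Next to Cd63 came Arhgdib (0.981), and Clec7a, a receptor of activated microglia (0.975). The mean of the 9 measured phagocyte genes of 10 listed was 8.42, 7.93 and 6.97 in wild type lesions 1 to 3 against 8.25, 6.75 and 6.68 in the transgenic ones. Their summed intensity ranged from 1598 to 6099 and from 1377 to 6015, with none at 0, and 7 of the 9 had lower means. Cd53, a tetraspanin of leukocytes, had its highest values in the same lesions, 9.66 in wild type lesion 1 and 9.11 in transgenic lesion 1. Relative to the mean of the 9 phagocyte genes on the same array, Cd9 differed between groups by -0.04 and Cd63 by 0.07, within SDs of 0.38 to 0.49. For Cd9 these SDs (0.46 in wild type, 0.49 in transgenic lesions) were not smaller than those of its own levels (0.40 and 0.40). Relative to the mean of the myelin genes, Cd9 differed by 0.30 (SD 0.21 in wild type, 0.57 in transgenic lesions).

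Cd9 had a second probe set, with a lower mean intensity and so not used by the rule. It read 6.03, 5.71 and 5.71 in the wild type group and 5.49, 5.53 and 5.53 in the transgenic one, without overlap. Its difference was -0.30 (SE 0.15, limma adjusted p 0.619). Its transgenic values lay within the range of the array medians, and the spread between lesions seen in the brighter probe set was not seen among them.

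**Figure D2:**
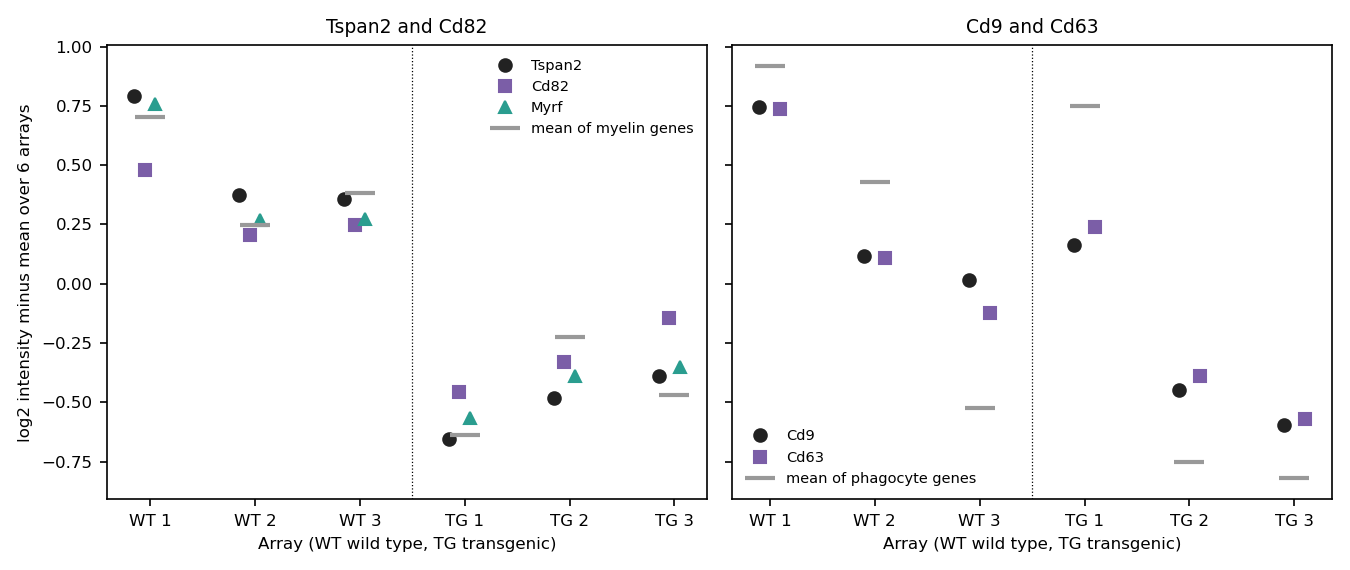
Log2 intensity of each gene or gene list mean minus its own mean over the 6 arrays (vertical axis), for the 3 wild type (WT) and 3 transgenic (TG) lesions on the horizontal axis; grey dashes are the means of 13 myelin genes (left) and 9 phagocyte genes (right). Tspan2, Cd82 and Myrf split by group, whereas Cd9 and Cd63 are high in lesion 1 of both groups.

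The stretches upstream of these 2 pairs of genes are shown because each pair had nearly the same profile across the lesions. They are the 250 bases before the most upstream start of each gene in RefSeq (build GRCm38.p6), printed along the strand of the gene. Tspan2 lies at chr3:102734520-102734769 (plus strand), Cd82 at chr2:93462951-93463200 (minus), Cd9 at chr6:125494761-125495010 (minus) and Cd63 at chr10:128909095-128909344 (plus). Capitals mark matches on either strand to a SOX core (ACAAAG or ACAATG), a Myrf motif (CTGGCAC or CTGGTAC), an Olig2 E-box (CAGCTG or CATCTG), a GC box (GGGCGG) or a TATA box (TATAAA).
Tspan2: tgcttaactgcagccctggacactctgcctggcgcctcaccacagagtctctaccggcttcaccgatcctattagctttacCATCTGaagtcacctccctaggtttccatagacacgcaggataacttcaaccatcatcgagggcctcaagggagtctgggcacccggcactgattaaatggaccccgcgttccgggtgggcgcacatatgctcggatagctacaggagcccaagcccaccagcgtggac
Cd82: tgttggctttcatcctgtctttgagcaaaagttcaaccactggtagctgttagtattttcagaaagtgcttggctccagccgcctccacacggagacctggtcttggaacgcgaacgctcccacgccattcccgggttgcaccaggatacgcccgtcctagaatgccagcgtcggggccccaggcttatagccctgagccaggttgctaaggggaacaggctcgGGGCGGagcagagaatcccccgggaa
Cd9: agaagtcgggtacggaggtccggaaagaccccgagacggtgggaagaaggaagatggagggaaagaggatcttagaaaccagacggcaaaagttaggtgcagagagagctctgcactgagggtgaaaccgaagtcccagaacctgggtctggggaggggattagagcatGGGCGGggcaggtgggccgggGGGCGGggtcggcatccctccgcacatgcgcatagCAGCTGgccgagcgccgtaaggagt
Cd63: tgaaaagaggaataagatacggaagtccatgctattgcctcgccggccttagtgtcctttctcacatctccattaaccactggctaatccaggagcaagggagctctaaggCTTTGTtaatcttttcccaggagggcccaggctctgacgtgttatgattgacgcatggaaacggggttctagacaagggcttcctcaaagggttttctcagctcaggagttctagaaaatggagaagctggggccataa

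The pairs did not share motifs in these windows. Tspan2 held 1 E-box, 169 bases before the start, and no other match, and Cd82 held 1 GC box at 26 bases. Cd9 held 2 GC boxes, at 81 and 60 bases, and 1 E-box at 25 bases, whereas Cd63 held 1 SOX core at 139 bases. Over the windows of 27025 genes, 25.3% held the E-box, 33.0% the GC box, 25.4% the SOX core, 5.88% the Myrf motif and 13.0% the TATA box. No matches overlapped in the windows printed. GC content was 57.2% for Tspan2, 58.4% for Cd82, 61.6% for Cd9 and 48.8% for Cd63, beside a median of 52.0%. A match is a run of letters and not a shown binding site.

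Cd81, a partner of Cd9 in many cells and of the B cell co-receptor, read 11.27, 10.95 and 10.82 in wild type lesions 1 to 3 against 10.60, 10.49 and 10.65 in the transgenic ones. The groups did not overlap, and the nearest arrays were 0.17 apart. The difference was -0.43 (SE 0.16, limma adjusted p 0.528), a 1.35-fold lower level. Its nearest genes were Tlr6, a toll-like receptor (r = 0.981), Cldn11, the claudin of myelin (0.979), and Msn, a linker of membrane to actin (0.978). Microglia and astrocytes both make Cd81. Of 9 homeostatic microglia genes 8 were measured and 8 were lower in mean (median difference -0.40), with sums of 1858 to 5016 in the wild type group and 1823 to 1997 in the transgenic one. The highest sum was that of wild type lesion 1. Averaged over these 8 microglia genes, wild type lesion 1 read 8.83, whereas wild type lesions 2 and 3 read 7.60 and 7.55. Transgenic lesions 1 to 3, at 7.65, 7.60 and 7.58, lay close to wild type lesions 2 and 3. The lower average of these microglia genes thus rested on wild type lesion 1. The 11 astrocyte genes had a median difference of -0.28, with 7 lower and 4 higher, and sums of 5388 to 5720 and 3704 to 5576. Averaged over these 11 genes, wild type lesions 1 to 3 read 8.70, 8.61 and 8.62. Transgenic lesion 1 read 8.13, whereas transgenic lesions 2 and 3, at 8.69 and 8.62, lay close to the wild type lesions. The lower average of these astrocyte genes thus rested on transgenic lesion 1. Relative to the mean of the astrocyte genes on the same array, Cd81 differed by -0.27 (SD 0.19 in wild type, 0.34 in transgenic lesions). No marker of either list was at 0.

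Tspan15, which guides the protease Adam10 to its substrates, had levels of 7.62, 7.06 and 7.38 in wild type lesions 1 to 3 and of 7.00, 6.50 and 6.76 in transgenic lesions 1 to 3. Lesion 1 was the highest of each group, as it was for Cd9 and Cd63. The groups did not overlap but came within 0.07 of each other. The difference was -0.60 (SE 0.20, limma adjusted p 0.492), a 1.52-fold lower level, and -0.47 without wild type lesion 1. Its nearest genes were 4933433G15Rik (r = 0.992), Ccna2, a cyclin of dividing cells (0.986), and Rab27a, a GTPase of vesicle release (0.975).

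Tspan15 belongs to the TspanC8 subgroup, tetraspanins that bind Adam10, whose members differed in size and direction. Of 6 measured TspanC8 genes 4 had lower and 2 higher means, from -0.60 for Tspan15 to 0.59 for Tspan17. The mean of Tspan17 was 7.67 ± 0.17 (SD, n = 3) without the transgene and 8.26 ± 0.19 (n = 3) with it, at a limma adjusted p of 0.447 and without overlap. Tspan5 differed by 0.15, Tspan14 by -0.07, Tspan33 by -0.03 and Tspan10 by -0.20. Adam10 itself differed by -0.29 (SE 0.20, adjusted p 0.725).

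Cd151, which binds laminin receptors and is known from blood vessels and epithelia, read 7.43, 7.11 and 7.02 in wild type lesions 1 to 3 against 6.54, 7.22 and 7.14 in the transgenic ones. Transgenic lesion 1 was the lowest array, and the remaining transgenic lesions lay within the wild type range. The difference was -0.22 (SE 0.22, limma adjusted p 0.825), and it was -0.0051 (SE 0.17) without that lesion. With sex as a covariate, a fit in which transgenic lesion 2 alone stands against the wild type lesions, the sign turned, at 0.032. Its nearest genes were Neo1, a receptor of axon guidance (r = 0.986), Chmp4b, which cuts membrane necks (0.982), and Glipr1l1 (0.974).

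Tspan3, known to bind the myelin claudin Cldn11, was the member with a higher mean. It read 8.91, 9.09 and 9.01 in wild type lesions 1 to 3 against 9.02, 9.31 and 8.98 in the transgenic ones. The groups overlapped and differed by 0.10 (SE 0.15, interval -0.25 to 0.46, limma adjusted p 0.888). Without transgenic lesion 2 the difference was 0.0003, and with array weights it was -0.0185. In the female arrays, where lesion 2 is the transgenic array, it was 0.30 (SE 0.16). Its nearest genes were Gm14322 (r = 0.978), Mir382 (0.978) and Rbm11 (0.977). Cldn11 differed by -0.91 (SE 0.21, adjusted p 0.400).

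**Figure D3:**
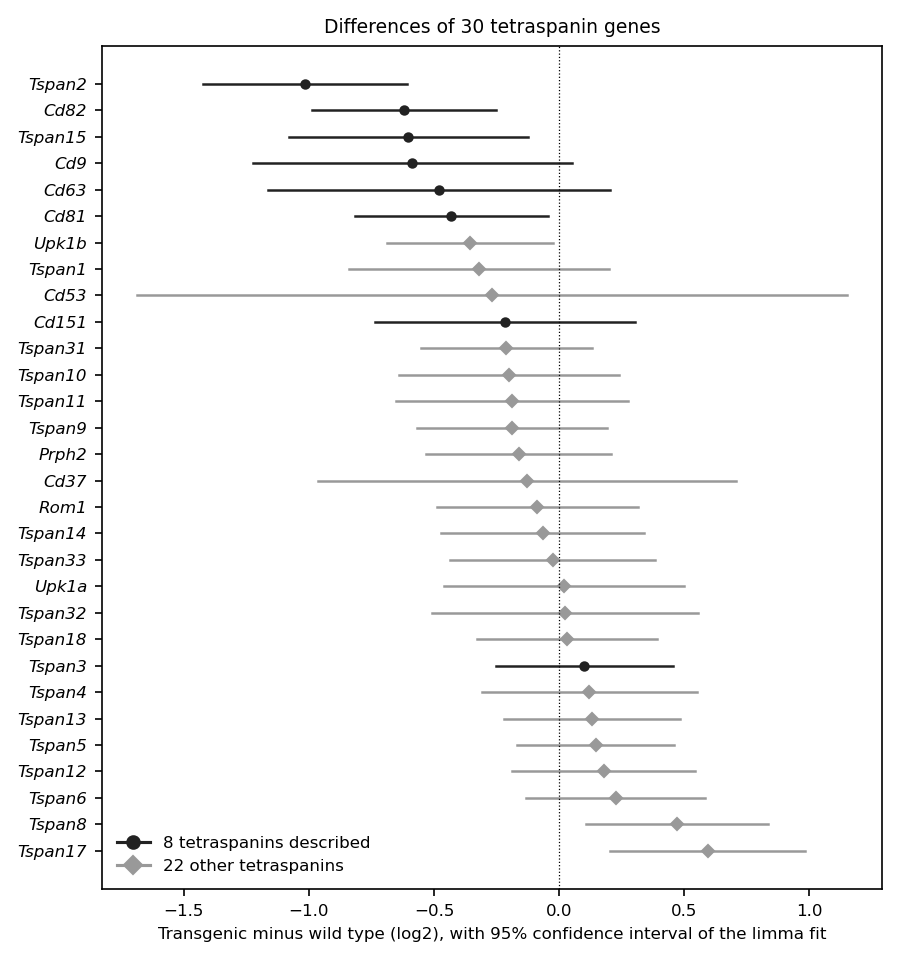
Transgenic minus wild type difference on the log2 scale (horizontal axis) of 30 tetraspanin genes, one per row, with 95% confidence intervals from the limma fit over 3 against 3 arrays; circles are the 8 genes described and diamonds the 22 other tetraspanins. Tspan2 is lowest at -1.02 and Tspan17 highest at 0.59.

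Outside these 8 genes the family showed no shared direction. All 22 further tetraspanins listed were measured. Lower means were found for 12 and higher means for 10, with a median difference of -0.05. None passed the adjusted threshold in either direction. An unadjusted limma p under 0.05 was found for 3 of the 22, beside 8.87% of all probe sets. The groups were apart downwards for 1 of the 22 and upwards for 2, beside 7.00% and 8.38% of all genes. Besides Tspan17, Tspan8, a tetraspanin of epithelia, differed by 0.47 (SE 0.15) and Upk1b, a uroplakin of the bladder lining, by -0.36 (SE 0.14). The mean levels of both genes lay below the array medians. Tspan6 differed by 0.23 and Tspan31 by -0.21. The leukocyte tetraspanins Cd37 and Cd53 differed by -0.13 (SE 0.36) and -0.27 (SE 0.60). Over all 30 tetraspanins 19 were lower and 11 higher, with a median of -0.15.

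Proteins that tetraspanins bind went both ways. Of 19 partners listed 18 were measured, with 9 lower, 9 higher and a median difference of -0.04. None passed in either direction, and 2 had an unadjusted limma p under 0.05, beside 8.87% of all probe sets. The groups were apart downwards for 4 of the 18 and upwards for 2, beside 7.00% and 8.38% of all genes. The laminin receptor subunits Itga6 (-0.45, SE 0.22), Itgb1 (-0.34, SE 0.19) and Itgb4 (-0.30, SE 0.14) had lower means without overlap of the groups. Their nearest arrays were only 0.06, 0.0052 and 0.09 apart, in that order. Itga7, another laminin receptor subunit, was 0.37 higher (SE 0.14), also without overlap, with the nearest arrays 0.12 apart. Igsf8 and Ptgfrn, the immunoglobulin-like partners of Cd9 and Cd81, differed by 0.06 (SE 0.13) and 0.24 (SE 0.17). Cldn11 is on both this list and the myelin list.

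Genes of the endosomes and exosomes in which Cd63 travels were lower in mean for 9 of 12, with a median of -0.25. None passed the adjusted threshold in either direction, and 1 had an unadjusted limma p under 0.05, beside 8.87% of all probe sets. Npc1, which exports cholesterol from lysosomes, differed by -0.77 (SE 0.25) and did not overlap between groups. Scarb2 differed by -0.34, Ctsb by -0.35, Pdcd6ip by -0.27 and Lamp1 by -0.24. Ctsb, like Cd63, was highest in wild type lesion 1, as were most genes of this list and most of the tetraspanins described.

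**Figure D4:**
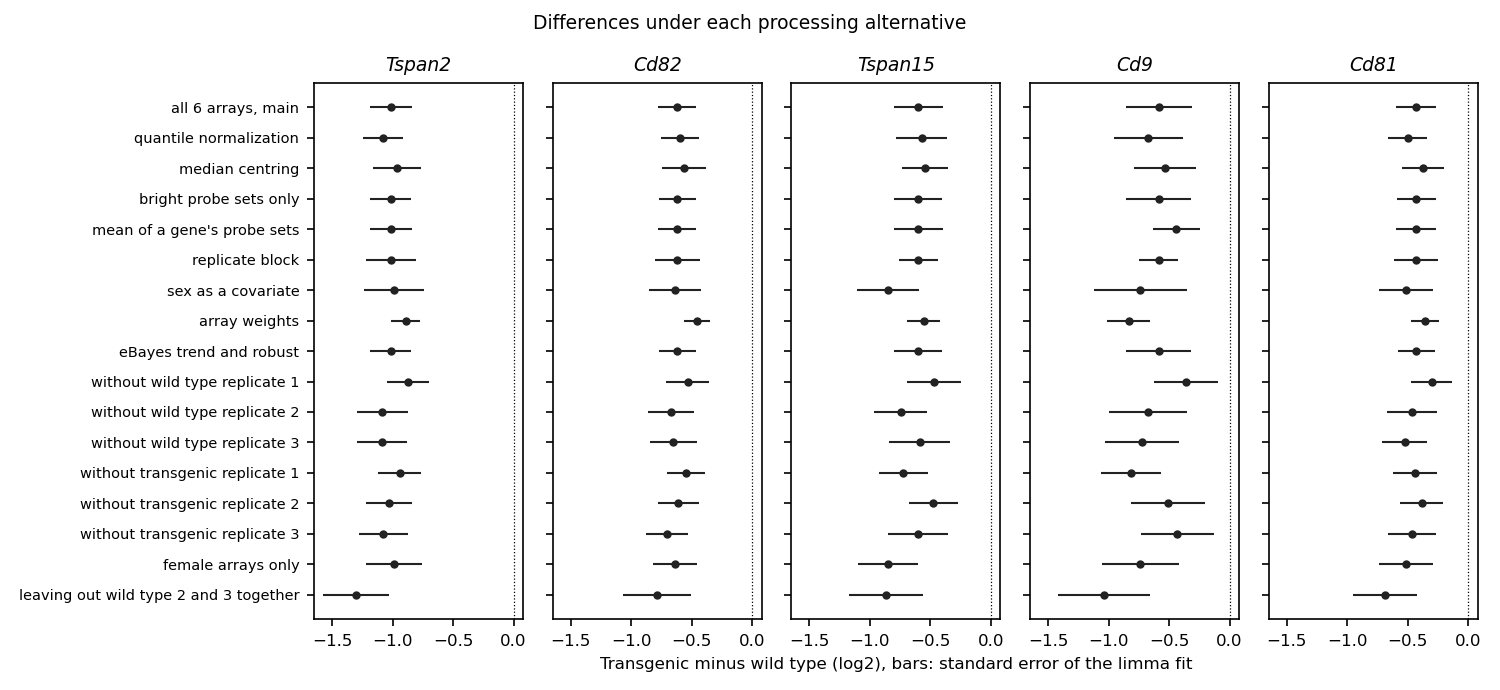
Transgenic minus wild type difference (log2, horizontal axis) of Tspan2, Cd82, Tspan15, Cd9 and Cd81 under the main settings and each alternative (rows), with bars for the standard error of the limma fit. All points of the genes drawn lie below 0, and Tspan2 ranges from -1.30 to -0.87. Not drawn are Cd63, below 0 in every setting, and Cd151 and Tspan3, which were above 0 in some.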

How the data were processed

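Total RNA of 6 lesions was measured on 6 Affymetrix arrays. The deposited intensities are linear, with a lowest value of 3.73; per the submitters' processing notes, the authors used RMA and Expression Console. They were turned to log2 with no pseudocount. For the tool versions and genome build nothing is given in the sources used here, and no detection calls or scan dates were used. Of 41345 probe sets, 23521 had 1 gene symbol in the platform annotation, 1814 several and 16010 none; genes were read from their brightest probe set with 1 symbol.

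Groups and replicate numbers come from the sample titles. Limma (version 3.58.1, R 4.3.3) was fitted to all probe sets without a covariate by lmFit and eBayes, two-sided, with Benjamini-Hochberg adjustment over all probe sets; the step was checked on simulated data. Each SD is over 3 arrays, a number that limits the precision. The members, gene lists and tests were chosen with earlier results of these data known. Text names all 8 measured members, up to 5 genes of the other tetraspanins, the partners and the endosome list by smallest p, the nearest 8 genes to Tspan2 and nearest 3 to each other member, and a few cell type markers; the TspanC8 subgroup, Cd37, Cd53, Adam10, Igsf8 and Ptgfrn were added after values were seen, as were the promoter motifs. Alternatives covered normalization, dim probe sets, probe set choice, pairing, sex, array weights, variance moderation and each array left out.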

Additional observations from a re-analysis of the deposited data

How the results depend on the processing

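The lower direction held for Tspan2, Cd9, Cd81, Cd82, Cd63 and Tspan15 under every alternative run; 7 of the 8 genes were lower in most and 6 to 8 in all. Array weights, which rested mostly on transgenic lesion 3 (weight 7.67), put 3 of the 8 past the adjusted threshold: Tspan2, Cd9 (-0.84) and Cd82 (-0.45), among 2611 probe sets. With sex as a covariate 1481 probe sets passed, in the female arrays 1843 and without transgenic lesion 2 335, against 0 in the main setting, but 0 of the 8 in each of these. Both male lesions are transgenic, so the sex covariate and the female arrays give 1 estimate, of transgenic lesion 2 against the wild type lesions, which assumes that this lone lesion varies like the others. Tspan3 turned to -0.0185 with array weights, and Cd151 to 0.032 in the estimate from transgenic lesion 2; the causes were not tested. The median difference of the 8 genes, -0.53, ran from -0.63 to -0.33 with 1 array left out, the latter without wild type lesion 1. Leaving out wild type lesions 2 and 3 together, an alternative chosen after seeing the data like that of the female arrays, gave -0.83, and -1.30 for Tspan2. The median of the tetraspanin partners, near 0, was 0.0137 after median centring, -0.0897 among bright probe sets, 0.0273 with array weights and -0.11 to 0.0165 with 1 array left out. That of the other tetraspanins stayed between -0.18 and 0.05.

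Replicate numbers in the titles are shared by the groups, but same-numbered lesions did not deviate together (r = 0.01, -0.10 and -0.07 over probe sets). With the replicate block the difference of Tspan2 was -1.02 (SE 0.21), 0 of the 8 passed, and 2999 probe sets had an unadjusted p under 0.05 against 3668. The block lowered the SE of Cd9 (0.27 to 0.16), Cd63 (0.29 to 0.16) and Tspan15 (0.20 to 0.16), and raised that of the remaining genes of the 8. Without detection calls, dim genes such as Tspan8 and Upk1b cannot be told from background.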
